A study of Mus musculus with 3 samples.

Results

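Potassium channel genes were examined in renal corpuscles of adult mice, where the kidney filters blood and where podocytes, capillary endothelium and mesangial cells lie within a capsule. The set held every gene whose platform symbol starts with Kcn, 92 of the 19938 genes measured, read by 95 probe sets. Genes entered by symbol, but the probe set that stands for each was chosen by its mean log2 signal over these same 3 arrays, and Kcnma1 was known beforehand for its low value on replicate 2. Those values are therefore a description. The 3 samples formed 1 group. All were wild-type CD-1 mice, male and 7 to 9 weeks old, and each sample pooled about 2 kidneys. No genotype, treatment or age was varied. After collagenase digestion the corpuscles were collected by sieving without a sort, so each pool could hold any cell type of the corpuscle and tubule pieces of similar size. Total RNA was amplified, labelled and hybridised to an Affymetrix mouse gene array. The table gives log2 signals, and the number of arrays limits their precision.

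Potassium channels let potassium ions leave or enter cells along their gradient and so set the membrane potential. Inward rectifiers (Kcnj) and K2P channels (Kcnk) pass current at rest, voltage-gated channels (Kcna to Kcnd, Kcnh and Kcnq) open when the membrane depolarises, and calcium-activated channels (Kcnma1 and Kcnn) answer a rise in cell calcium. Modifier subunits (Kcnf, Kcng, Kcns and Kcnv) form no channel alone but change the voltage-gated ones, and accessory subunits (Kcnab, Kcne, Kcnip and Kcnmb) attach to pores made by other genes. In the kidney these genes are known for the tone of arterioles and mesangial cells, for potassium secretion by the tubule and for the basolateral recycling that drives salt transport.

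Each level was set against background, the 95th percentile of 1210 olfactory and vomeronasal receptor probe sets, which was 6.90, 6.96 and 6.92 log2 on replicates 1, 2 and 3. A gene was detected where limma's one-sided test placed it above that line at an adjusted p under 0.05 over all genes. Markers of the labelled tissue were present, with 7 of 7 podocyte, 7 of 7 endothelial and 8 of 8 mesangial and pericyte genes measured being detected. So were 6 of 7 proximal tubule, 4 of 6 thick limb and distal tubule, 4 of 6 collecting duct and 5 of 7 immune genes. Over all genes 58.9% were detected, so these tubule and immune counts alone do not show that such cells were present. In such mixed tissue, fewer cells of a type and less RNA per cell cannot be told apart.

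Potassium channel genes were mostly at or near background. Of the 92 members, 38 (41.3%) were detected, beside 58.9% of all genes. All genes here include the olfactory and vomeronasal receptor genes that set the line. Few of those can pass it, which lowers the values over all genes. The median member lay 0.12 log2 below background, where the median gene lay 0.37 above it. More than 1 log2 above background were 7 members, beside 35.2% of all genes. A linear signal over 150 on every array was reached by 27 members, beside 51.3% of all genes. A signal over 500 on every array, which the study took as a rough limit for in situ hybridization, was reached by 1 member, Kcnma1, beside 17.2% of all genes. With the other probe set of Kcnma1, described below, or with the mean over probe sets, 0 members reached it. The study set that limit on raw signals of sorted podocytes, so neither its scale nor its cells need match these arrays. The count of detected members rested on where background was drawn. With the 99th percentile of receptors 14 members (15.2%) were detected, beside 41.7% of all genes, and with the receptors' median 91 members (98.9%), beside 90.4%. For the 89 members with 1 probe set, where no value chose the probe set, 36 (40.4%) were detected, beside 57.6% of all such genes. Of the 54 undetected members, 30 lay within 0.5 log2 of background, beside 2942 of all 8204 undetected genes.

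**Figure D1:**
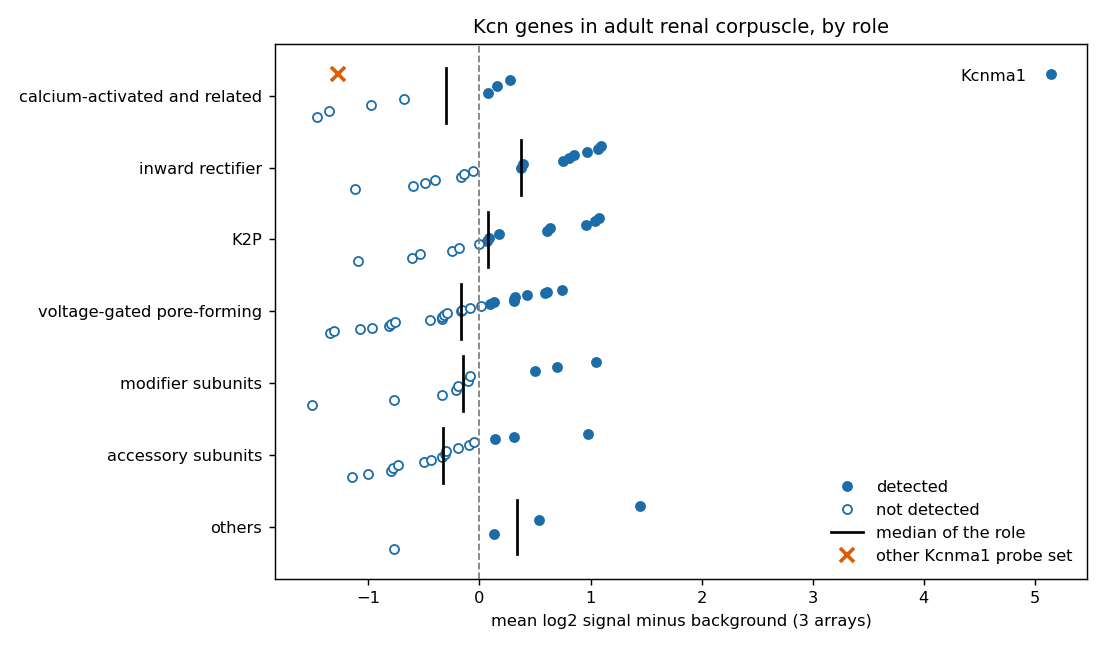
Mean log2 signal over 3 arrays minus background (horizontal axis) of each of 92 Kcn genes, in rows by role; filled points are detected, open points are not, black bars are role medians and the cross is the probe set of Kcnma1 that was not chosen. Apart from Kcnma1 at 5.14, detected genes lie between 0.06 and 1.45, and the other Kcnma1 probe set lies at -1.27.

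Kcnma1 encodes the pore of the BK channel, the large-conductance calcium- and voltage-activated channel of smooth muscle and mesangial cells. Its chosen probe set gave log2 signals of 12.57 on replicate 1, 10.93 on replicate 2 and 12.69 on replicate 3 (6099, 1957 and 6619 on the linear scale). Replicate 2 was low and the other arrays were close to each other. Its mean was 12.07 ± 0.98 (SD, n = 3), 5.14 above background, and replicate 2 minus the mean of the other arrays was -1.70 log2 (3.25-fold lower). The second probe set that names Kcnma1 read 5.65 on every array, at -1.27 relative to background, and was not detected. Being below background with 1 repeated value, it could not show a difference between arrays. The platform annotation tied this second probe set to 20 accessions, of which 17 were RefSeq transcripts, and the chosen one to 4 accessions, of which 0 were RefSeq transcripts.

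**Figure D2:**
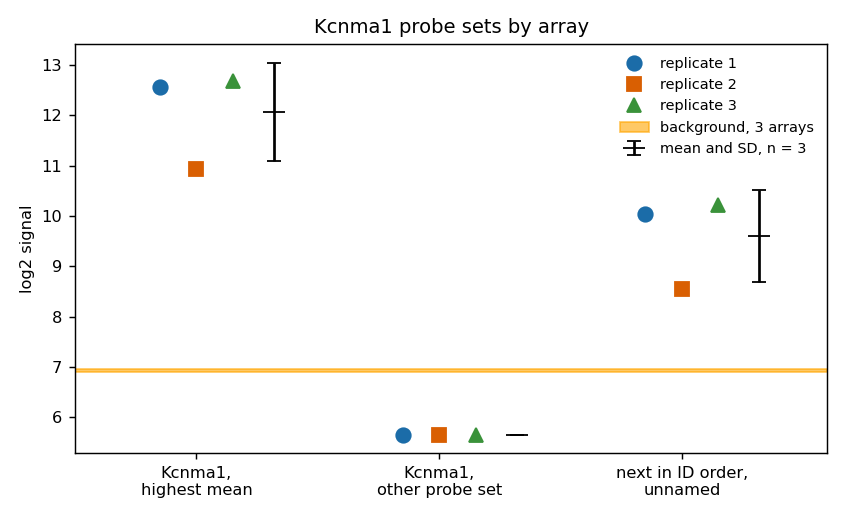
log2 signal (vertical axis) on each of 3 arrays for both probe sets named Kcnma1 and for the unnamed probe set next in ID order; black bars are mean and SD (n = 3) and the orange band is background on the 3 arrays. The chosen probe set spans 10.93 to 12.69 and is lowest on replicate 2, as is the unnamed one, whereas the other Kcnma1 probe set holds 5.65 throughout.

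The place of the chosen probe set in ID order also set it apart from the other members. IDs of this array follow the chromosomes. Of 21698 one-gene probe sets whose gene has a chromosome in RefSeq (GRCm38.p6), 96.7% had most of their 10 nearest named neighbours in ID order on the chromosome of their own gene, and 2.72% had none there. Among the 95 Kcn probe sets 94 had most of them there. The exception was the chosen Kcnma1 probe set. Kcnma1 is placed on chromosome 14, and 0 of the 10 neighbours were genes of chromosome 14, since all 10 were on chromosome 8. For the second Kcnma1 probe set all 10 neighbours were on chromosome 14. Of the 24 probe sets within 12 places of the chosen one, 1 was also at least 1 log2 lower on replicate 2. This was the next in order, unnamed here, with 10.04, 8.56 and 10.21 log2, a difference of -1.57. Which transcript the chosen probe set binds was not tested, and its values are given as those of a probe set that the annotation names Kcnma1.

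**Figure D3:**
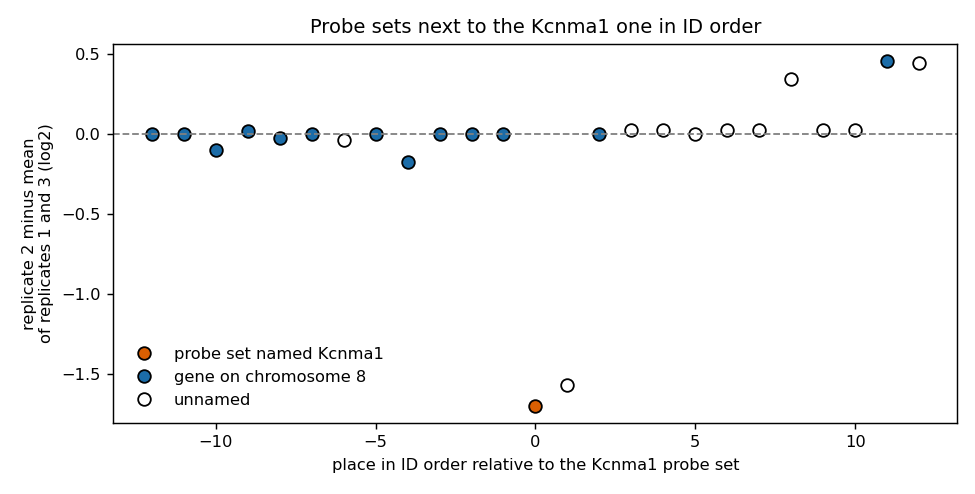
Replicate 2 minus the mean of replicates 1 and 3 in log2 (vertical axis) for the chosen Kcnma1 probe set and the 12 probe sets on either side in ID order (horizontal axis, in places); orange is the probe set named Kcnma1, blue are genes on chromosome 8 and white are unnamed. The Kcnma1 probe set at -1.70 and the next one at -1.57 lie apart from the others, which lie between -0.18 and 0.45.

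Over all probe sets 150 were at least 1 log2 lower on replicate 2 than the mean of the other arrays, 141 of them unnamed. Over genes the number was 7, and 1 of those had a larger difference than Kcnma1. Replicate 2 also stood apart for the interferon response. The 4 such genes measured were all detected, and their summed linear signal was 6332 on replicate 2, against 2382 and 1972 on replicates 1 and 3. The summed signal of 9 smooth muscle genes, 8 of them detected and Cnn1 not, was 4895, 5404 and 6061 on replicates 1, 2 and 3. That of the 8 mesangial and pericyte genes was 16850, 17950 and 18060. Neither of these lists was lowest on replicate 2. Des was in both lists, and a linear sum rests most on the strongest genes of a list. The summed signal of the 7 endothelial genes was lowest there, at 21010, 19840 and 20190 on replicates 1, 2 and 3. That of the 7 podocyte genes was 21180, 20600 and 20240, lowest on replicate 3. The part of these lists in the Kcnma1 values was not tested.

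Of the beta subunit genes of the BK pore only Kcnmb3 was detected, where 58.9% of all genes were. With the receptors' median as background Kcnmb1, Kcnmb2 and Kcnmb4 were detected too, as were 90.4% of all genes. Kcnmb1, the beta subunit of smooth muscle BK channels, read 6.79, 6.83 and 6.87 log2, 0.09 below background on average, and its 3 values did not reach background on any array. Kcnmb2 held 6.49 and Kcnmb4, the neuronal beta subunit, held 6.15 on every array, both undetected. Kcnmb3 was detected at 7.90 on every array, 0.98 above background. It overlaps Pik3ca in RefSeq, which read 9.34, 9.34 and 9.26, and signals of overlapping genes may not be separable. Of the 4 gamma subunit genes Lrrc26, Lrrc38, Lrrc52 and Lrrc55, 0 were detected, at 0.14 to 1.10 below background.

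The other calcium-activated and related genes lay close to the line or below it. The small-conductance channel genes Kcnn1 and Kcnn3 held 7.20 and 7.09 log2 on every array and were detected, 0.27 and 0.16 above background. Kcnn4, the intermediate-conductance channel of blood cells and endothelium, held 7.00, 0.08 above background, and its call was lost without replicate 1 and without replicate 3. Kcnn2 held 5.57 and was undetected. The sodium-activated channel gene Kcnt1 held 6.25, and Kcnt2 read 5.37, 5.65 and 5.37, with replicate 2 above the others. Kcnu1, a sperm channel gene, lay 0.98 below background. Of the 8 genes of this role 4 were detected, and without the chosen Kcnma1 probe set 3.

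Of 15 inward rectifier genes 8 (53.3%) were detected, with a median 0.37 above background. Kcnj1, which encodes ROMK, the secretory channel of the thick limb and collecting duct, read 8.20, 8.20 and 7.65 log2 on replicates 1, 2 and 3. Replicate 3 was the low one, and the mean of 8.02 ± 0.32 (SD, n = 3) was 1.10 above background. Beside it, the summed linear signal of 6 thick limb and distal tubule genes was 2129, 2129 and 2297, with Slc12a1 and Trpm6 undetected. That of 6 collecting duct genes, with Scnn1b and Scnn1g undetected, was 946.8, 1053 and 870.4. The genes of the first list did not move together. Slc12a3, at 8.53, 8.51 and 7.95 log2, and Pvalb, at 8.56, 8.73 and 8.04, were lowest on replicate 3, as Kcnj1 was. Umod, at 8.77, 9.18 and 9.78, was highest there, as was the undetected Slc12a1. In the collecting duct list Atp6v1g3 was lowest on replicate 3, at 7.94, 8.41 and 7.40, while the other genes of that list were nearly level. The part of tubule RNA in Kcnj1 was not tested.

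Kcnj12, a strong inward rectifier, read 7.96, 7.96 and 8.05 log2. Kcnj8, the pore of vascular ATP-sensitive channels in pericytes and smooth muscle, read 7.84, 8.01 and 7.84, 0.97 above background. Abcc9, the sulfonylurea receptor subunit that pairs with it, was also detected, at 7.99, 7.99 and 7.92. Both subunits of the vascular channel thus stood about 1 log2 above the line on every array. Kcnj11, the pore known from pancreatic beta cells, held 7.30, 0.37 above background, and Abcc8, its usual receptor subunit there, held 6.67 and was undetected. Kcnj5 and Kcnj13 held 7.77 and 7.73 on every array, and Kcnj13 overlaps Gigyf2, which held 9.62. Kcnj16 was detected at 7.68 on every array. Kcnj10, which forms the basolateral channel of the distal tubule with it, was not, at 6.82, 6.79 and 6.75. Kcnj15, a channel gene of the proximal tubule, read 7.25, 7.35 and 7.35.

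Of the undetected inward rectifiers, Kcnj14 read 6.98, 6.63 and 6.99 log2, low on replicate 2 and just above the line on the other arrays, and without replicate 2 it was detected. Kcnj9, a G protein-gated rectifier, held 6.75. Kcnj2 read 6.24, 6.60 and 6.14 and was highest on replicate 2, below background throughout.

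Of 14 K2P genes 8 (57.1%) were detected, with a median 0.08 above background. Kcnk1 (TWIK-1), a weak background channel, read 7.99, 7.94 and 8.09 log2, and its relative Kcnk6 (TWIK-2) held 7.97. Both stood just over 1 log2 above background, with arrays of Kcnk1 spanning 0.149. Kcnk15 held 7.88, Kcnk4, a mechanosensitive channel gene, 7.56, and Kcnk3, the acid-sensitive TASK-1, 7.54, each on every array. Kcnk12, Kcnk7 and Kcnk16 lay 0.06 to 0.18 above the line, and the call of Kcnk7 was lost without replicate 1 and without replicate 3. Kcnk16 read 6.92, 7.12 and 6.92, and its call was lost without replicate 2 and without replicate 3. Just below the line were Kcnk13 at -0.01, Kcnk10 at -0.19 and the stretch-activated Kcnk2 at -0.25. Kcnk5, a channel gene of the proximal tubule, was undetected at 5.78, 5.78 and 5.94.

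Of 25 voltage-gated pore genes 9 (36.0%) were detected, with a median 0.17 below background. Kcnd3, an A-type channel gene, read 7.67, 7.66 and 7.67 log2. Of genes whose products can attach to such channels, Dpp6, Dpp10 and the Kcnip genes 1 to 4 were undetected, with Kcnip3 only 0.19 below background. Kcnd3os, an RNA gene that overlaps Kcnd3, held 7.46. Kcnh4 held 7.53. Kcnq5, an M-type channel gene of vascular muscle, read 7.54, 7.45 and 7.55, with replicate 2 the lowest. Kcna2 read 7.35, 7.36 and 7.36 on the chosen probe set, while its other probe set held 6.55, at -0.376 relative to background, and with the mean of both Kcna2 was not detected. Kcna3, the channel of T cells, Kcnh3 and Kcnq1, the slow cardiac and epithelial channel, lay 0.31 to 0.32 above the line. Kcnh1 lay 0.14 and Kcna5 0.09 above it, and the call of Kcna5 was lost without replicate 3. Kcnh2 (hERG) held 6.94 and was not detected, 0.02 above background. Kcna10 and Kcnc4 were undetected at -0.08 and -0.16.

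Subunits that make no channel alone followed. Of 16 accessory genes 3 (18.8%) were detected. Besides Kcnmb3 these were Kcne4 at 7.25, 7.25 and 7.22 log2 and Kcnab2 at 6.98, 7.11 and 7.11. Kcnab1 held 6.87, 0.05 below background, and Kcnip3, a calcium-binding partner of A-type channels, held 6.73. Of 10 modifier genes 3 (30.0%) were detected. Kcng1 held 7.97 on every array, Kcng2 read 7.54, 7.64 and 7.70, and Kcns3 read 7.42 throughout. Kcng4, Kcnf1 and Kcns1 lay 0.08 to 0.19 below the line. These shares were set beside the 58.9% of all genes and were not tested against each other.

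Kcnrg encodes a soluble protein that, from work on the human gene, resembles the assembly domain of voltage-gated channels and is not a channel itself. It read 8.62, 8.15 and 8.35 log2, 8.37 ± 0.23 (SD, n = 3), 1.45 above background. Replicate 1 was the highest and replicate 2 the lowest. In RefSeq it overlaps Trim13, at 7.72, 7.72 and 7.65, and Dleu2, at 3.35, 3.30 and 3.35. Trim13 was detected and Dleu2 was not. Their part in the Kcnrg signal was not tested. Named RefSeq genes overlap 16 of the members, counted over whole gene spans without regard to strand or exons. These include the detected Kcnh3 with Mcrs1 (7.76), Kcnk7 with Ehbp1l1 (7.84), Kcnab2 with Nphp4 (7.20) and Kcnq1 with Kcnq1ot1. The part of those genes in the signals of these members was not tested either. Also among the 16 are Kcnmb4os1 and Kcnmb4os2, RNA genes at the Kcnmb4 locus. Kcnmb4os1 read 7.05, 7.05 and 7.08 and was detected, whereas Kcnmb4os2 and Kcnmb4 were not, at 6.16 and 6.15.

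The spread between preparations could be read for only part of the members. On all 3 arrays 52 members (56.5%) held 1 value to every deposited decimal, beside 54.2% of all genes. On a pair of arrays 29 (31.5%) held 1 value, beside 27.5% of all genes. An SD of 0 is thus no error of 0. Values also recurred between genes. On replicates 1, 2 and 3, 51, 53 and 57 members had a signal that another probe set of the same array held exactly (55.4%, 57.6% and 62.0%), beside 45.1%, 46.1% and 44.8% of all probe sets. Of the 40 members with unequal values, replicate 2 was above the mean of the other arrays in 24 and below it in 16. Arrays spanned over 0.2 log2 in 6 of the 92 members, beside 2078 of all 19938 genes. The 6 were Kcnma1, Kcnj1, Kcnrg, Kcnj2, Kcnj14 and Kcnt2, of which 3 were detected. They spanned over 1 log2 in 1, Kcnma1, beside 0.301% of all genes, and in none with the second Kcnma1 probe set. Apart from Kcnma1 the largest SD of a member was 0.317.

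**Figure D4:**
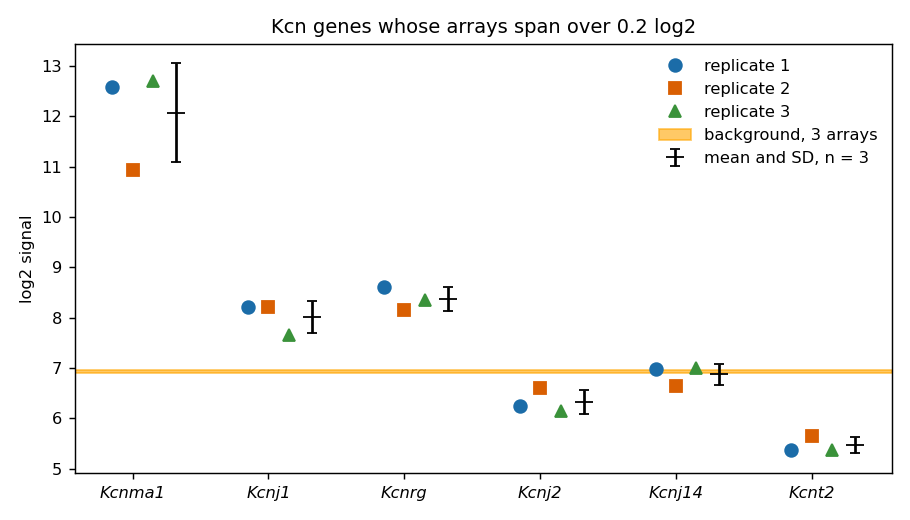
log2 signal (vertical axis) on each of 3 arrays for the 6 Kcn genes whose arrays span over 0.2 log2 (horizontal axis); black bars are mean and SD (n = 3) and the orange band is background on the 3 arrays. Replicate 2 is lowest for Kcnma1, Kcnrg and Kcnj14 and highest for Kcnj2 and Kcnt2, and Kcnj1 is lowest on replicate 3.

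Calcium routes and other partners from a list of 21 genes were read in the same way. Of the 18 measured 7 were detected, beside 58.9% of all genes. Among the 7, Hcn2 and Hcn4 lay only 0.16 and 0.21 log2 above background. Trpc1 read 9.98, 10.06 and 9.98 log2 and Trpc6, a calcium-permeable channel of podocytes, 8.57, 8.57 and 8.54. The store-operated pair Orai1 and Stim1 was detected at 7.87 and 7.97. The L-type calcium channel gene Cacna1c and the calcium release channel gene Ryr2 were undetected at 6.53 and 6.59.

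Promoter sequence was compared between detected and undetected members, since the density of CG dinucleotides, the sites of DNA methylation, differs widely among promoters. RefSeq windows of 300 bases around the start site (GRCm38.p6) matched 70 members, and the window with most CG stood for a gene with several. The dinucleotide CG reads the same on both strands, and 94.6% of all 32851 windows held at least 1. Members with few and with many CG, detected and undetected in each case and chosen after their counts were seen, are shown with each CG in capitals. Kcnj1 (chr9:32393735-32394034, plus strand, 2 CG) and Kcnrg (chr14:61607207-61607506, plus strand, 1 CG) had few CG and were detected, and Kcna10 (chr3:107182893-107183192, plus strand, 0 CG) had none and was undetected. Kcna3 (chr3:107035912-107036211, plus strand, 37 CG) had many and was detected. Kcnmb4 (chr10:116473474-116473773, minus strand, 48 CG) and Kcng3 (chr17:83631846-83632145, minus strand, 49 CG) had many and were undetected.
Kcnj1: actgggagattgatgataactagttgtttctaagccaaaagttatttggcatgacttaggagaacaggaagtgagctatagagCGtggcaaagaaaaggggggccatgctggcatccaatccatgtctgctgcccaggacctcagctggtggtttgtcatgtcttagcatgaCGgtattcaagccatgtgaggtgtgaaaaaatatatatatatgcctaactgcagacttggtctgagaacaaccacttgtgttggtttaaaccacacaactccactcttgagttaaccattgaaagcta
Kcnrg: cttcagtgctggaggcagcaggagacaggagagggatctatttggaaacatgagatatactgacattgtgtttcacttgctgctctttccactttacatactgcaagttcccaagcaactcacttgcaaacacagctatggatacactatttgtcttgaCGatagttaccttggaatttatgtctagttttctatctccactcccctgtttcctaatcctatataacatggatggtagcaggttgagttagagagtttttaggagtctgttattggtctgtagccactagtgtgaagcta
Kcna10: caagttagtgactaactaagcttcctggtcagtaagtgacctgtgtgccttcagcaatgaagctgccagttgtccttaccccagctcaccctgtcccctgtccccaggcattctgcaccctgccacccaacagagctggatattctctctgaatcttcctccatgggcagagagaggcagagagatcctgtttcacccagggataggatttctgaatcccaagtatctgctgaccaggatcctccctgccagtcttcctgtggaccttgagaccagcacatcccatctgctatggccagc
Kcna3: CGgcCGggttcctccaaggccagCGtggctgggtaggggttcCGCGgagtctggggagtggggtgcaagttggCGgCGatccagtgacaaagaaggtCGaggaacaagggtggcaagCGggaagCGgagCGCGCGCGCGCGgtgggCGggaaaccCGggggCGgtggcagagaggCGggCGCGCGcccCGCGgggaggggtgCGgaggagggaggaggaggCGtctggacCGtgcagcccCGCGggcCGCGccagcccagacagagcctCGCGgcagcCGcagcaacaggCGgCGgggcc
Kcnmb4: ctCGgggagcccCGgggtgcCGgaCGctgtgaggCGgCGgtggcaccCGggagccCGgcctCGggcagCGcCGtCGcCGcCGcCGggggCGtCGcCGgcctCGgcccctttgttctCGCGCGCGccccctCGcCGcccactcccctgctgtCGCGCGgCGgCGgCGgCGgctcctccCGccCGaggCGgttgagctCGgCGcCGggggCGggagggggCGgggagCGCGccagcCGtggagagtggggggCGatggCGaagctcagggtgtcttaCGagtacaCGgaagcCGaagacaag
Kcng3: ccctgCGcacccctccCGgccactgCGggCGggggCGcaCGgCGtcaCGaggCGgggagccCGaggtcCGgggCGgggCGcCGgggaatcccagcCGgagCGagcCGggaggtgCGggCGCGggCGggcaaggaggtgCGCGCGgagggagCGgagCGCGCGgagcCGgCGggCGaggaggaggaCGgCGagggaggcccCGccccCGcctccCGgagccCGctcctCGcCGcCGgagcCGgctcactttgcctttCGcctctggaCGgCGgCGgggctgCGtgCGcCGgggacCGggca

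The median CG count was 10 in the 30 detected members and 17 in the 40 undetected ones. Over all genes but the receptors the order was the other way, with 22 in 9339 detected genes and 7 in 5211 undetected ones. The middle 50% of members overlapped, from 5.25 to 23.75 in detected members and from 7.75 to 21.25 in undetected ones. With the window of fewest CG for each gene the medians were 9 and 9.5, so the gap among members nearly closed, whereas over all genes they were 19 and 6. For the 55 members with 1 window the medians were 10 and 17.5. Over all windows the median was 7. Below it were the detected Kcnj12 with 4 CG and Kcnj13 with 5, and also the undetected Kcna10 with 0 and Kcnmb1 with 1. No test was made of these counts, and members of 1 subfamily share ancestry.

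**Figure D5:**
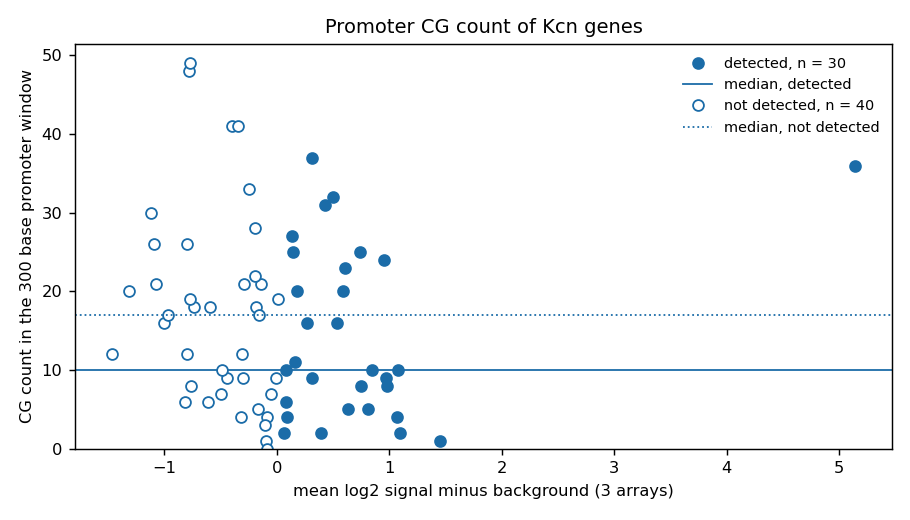
CG count in the 300 base promoter window (vertical axis) against mean log2 signal minus background (horizontal axis) for 70 Kcn genes; filled points are the 30 detected and open points the 40 undetected genes, and lines are their medians, 10 and 17. Detected genes lie between 1 and 37 CG and undetected genes between 0 and 49 CG, so the ranges overlap.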

How the data were processed

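The 3 hybridisations of adult renal corpuscle RNA were analysed. The authors deposited 1 table of log2 signals for 35557 probe sets, with values from 2.36 to 14.4, and Affymetrix Expression Console is the tool in the submitters' processing notes. The log2 scale was read from the range of the values, and the method and normalization behind them are not given in the sources used here. No further scaling was applied, and the table holds 0 columns of other samples. Of the probe sets, 21789 name 1 gene, 1621 name several and were not used for genes, and 12147 are unnamed here. Each gene took its probe set of highest mean, and each level was read against background. Signals of different probe sets are not on 1 scale, so the order of levels served only to choose names. Log2 signal minus each array's background was fitted with limma 3.58.1 in R 4.3.3 (lmFit with an intercept, eBayes with trend, one-sided, Benjamini-Hochberg over 19938 genes). Since eBayes borrows spread from other genes, a gene with an SD of 0 is not taken as free of error. However, 54.2% of all genes held 1 value on all 3 arrays, as did 21 of the 38 detected members. For such genes the fit saw only the borrowed spread and the differences between the arrays' background levels. Their calls therefore do not measure spread between preparations, and no p-value of a single gene is printed. The fit was tested on simulated data that held no repeated values and no genes set at the line. That test therefore does not bear on calls close to the line or on genes with repeated values. Linear signals are 2 to the power of log2 values.

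Genes were named by role, as the 4 detected members and up to 3 undetected members of highest level, every calcium-activated subunit, members over 500 or spanning over 1 log2, and those on either side of the line; further members were named after their values were seen. The members, lists and tests were chosen with earlier results of these data known. Whether the pools were made on separate days or from separate litters is not in the labels, and part of the spread may be technical. Where a member's neighbours in ID order were counted, the 10 nearest one-gene probe sets with a RefSeq chromosome (GRCm38.p6) were used; the genome build behind the array annotation was not stated. Alternatives covered the background level, the test, quantile normalization, the probe set rule and leaving out each array.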

Additional observations from a re-analysis of the deposited data

Results flagged for a closer look

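A signal outside the genes compared was noted. The unnamed probe set that follows the chosen Kcnma1 probe set in ID order had a mean of 9.60 log2, above the background of every array, and replicate 2 minus the mean of the other arrays was -1.57. No group held enough samples for a test of single samples lying far from the rest.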

How the results depend on the processing

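No paired analysis was possible because there was only 1 group of samples. The settings with the second Kcnma1 probe set, without the antisense RNA genes and with other promoter windows were chosen after seeing the data. With the 99th percentile of receptors 14 members were detected and their median was -0.756 relative to background. With the receptors' median 91 members and 18024 genes were detected and the median was 1.43. Under the other settings the counts stayed within 1.5 times of 38 members and 11734 genes, though not with the same members throughout. A linear signal over 150 was held by 27 members. With the mean over probe sets or with the second Kcnma1 probe set, 0 members exceeded 500 and 0 spanned over 1 log2. Replicate 2 minus the others in Kcnma1 was 0 with the second probe set, -0.849 with the mean of probe sets and -1.70 under quantile normalization. Leaving out 1 array at a time gave 34 to 38 detected members, 11393 to 11855 detected genes, 1 member over 500 each time, 0 to 1 spanning over 1 log2 (0 without replicate 2) and medians of -0.158 to -0.121. Kcnk7 and Kcnn4 lost their calls without replicate 1 and without replicate 3, Kcna5 without replicate 3, and Kcnk16 without replicate 2, without replicate 3 and in limma without trend. Kcna2 lost it with the mean over probe sets, and Kcnj14 gained a call without replicate 2. Depth does not apply to arrays. With 3 arrays and many repeated values, small differences between preparations cannot be read.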

Other observations

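Other ion channel families, taken by symbol and read in the same fit, were detected to different degrees. Of 24 voltage-gated calcium channel genes (Cacn) 9 (37.5%) were detected and of 11 sodium channel genes (Scn) 2 (18.2%). Of 22 TRP channel genes (Trpa, Trpc, Trpm and Trpv) 7 (31.8%) were detected. The share over all genes was 58.9%. Over a linear signal of 500 on every array were 4 of the 22 TRP genes, near the 17.2% of all genes. Of the 7 chloride channel and transporter genes (Clcn) measured, 7 were detected, with a median of 0.934 log2 above background. These families were added after the data were seen, and the counts were not tested against that of the potassium channel genes.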
